A study of Capra hircus with 2 samples.

Results

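Macrophages and other myeloid cells of the fetal goat ovary were chosen by measured UMI counts of 5 genes and by the number of detected genes. A member was a cell barcode with 500 or more detected genes, 2 or more unique molecular identifiers (UMIs, tags that each stand for 1 captured RNA molecule) of AIF1, and 0 UMIs of PECAM1, KDR, FST and KRT8. AIF1 encodes a calcium-binding protein of macrophages and related cells. PECAM1 and KDR are endothelial genes, FST encodes the activin antagonist follistatin and KRT8 is an epithelial keratin. The rule found 97 of 12743 barcodes. They were 53 of the 8346 barcodes of the library of stage E125 and 44 of the 4397 barcodes of stage E85, where E stands for the embryonic day.

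The study profiled dissociated ovaries of female goat (Capra hircus) fetuses at these stages, around the time when oocytes become enclosed in primordial follicles. Each stage is 1 library, with no treatment or genotype named, and the number of animals behind a library is not stated. The labels name ovary and female sex, while the tissue collection text that goes with them speaks of testes. With 1 library a stage there is no replicate, so no test was possible. Levels are UMIs summed over a group of barcodes in counts per 1000000 UMIs of that group (CPM), with exact 95% Poisson intervals, ratios carry exact conditional intervals and shares exact Clopper-Pearson intervals. None of these intervals covers anything beyond the error of counting.

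The members held 243154 UMIs at E125 and 316183 at E85. A member had a median of 3636 UMIs at E125 (857 to 17886) and of 7059.5 at E85 (2253 to 15761). The other barcodes with 500 or more genes, 7592 at E125 and 3984 at E85, had medians of 3242.5 and 3124.5 UMIs. Members were 0.693% of the barcodes with 500 or more genes at E125 (0.520 to 0.906) and 1.09% at E85 (0.795 to 1.46). The libraries shared 13 barcode sequences, and 1 member, at E85, carried one of them.

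Macrophages enter fetal organs early and take up dying cells, iron and debris. They recognise their targets in part through complement C1q, a secreted protein that macrophages make from the genes C1QA, C1QB and C1QC and that tags cells for uptake. Dendritic cells, the other common tissue myeloid cells, specialise in presenting peptides on MHC class II molecules, whose alpha chain HLA-DRA is assembled with the chaperone CD74. The cross-presenting dendritic cell subset is known in mouse and human by the transcription factor BATF3 and the dead-cell receptor CLEC9A.

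The rule's own genes are a description of how members were chosen. AIF1 had 2 to 58 UMIs in an E125 member (median 7) and 2 to 69 in an E85 member (median 22). At the AIF1 limit, 12 E125 and 7 E85 members had 2 or 3 UMIs, and 35 and 82 barcodes just outside had 1. The 12 at E125 all held C1Q UMIs, at 69.4 per 10000 UMIs summed over them. Of the 7 at E85, 4 held C1Q UMIs, at 3.13 per 10000. DCN, a collagen-binding proteoglycan of stroma, was found in 7 of these 7, at 13.8 UMIs per 10000, against 17.1 per 10000 in E85 barcodes without AIF1, and the leukocyte gene LAPTM5 in 1. HLA-DRA and CD74 together had 1 UMI in them. These 7 go against the label. So does 1 of the 12 at E125, with 18 DCN UMIs, 1 C1Q UMI and 0 UMIs of LAPTM5, HLA-DRA and CD74. That E125 member was kept in the comparisons below. Where leaving out the 7 E85 members ends a call or moves a named value by over 1.5 times, the value without them is given beside it. Of the barcodes with 1 AIF1 UMI, 16 of 35 at E125 and 78 of 82 at E85 held DCN.

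The exclusion genes removed many barcodes with the same transcripts. Of 103 barcodes with 2 or more AIF1 UMIs at E125, 50 were excluded, 42 of them by PECAM1 alone. At E85, 20 of 64 were excluded, 14 by PECAM1 alone. PECAM1 is known on leukocytes as well as on endothelium. Per 10000 UMIs, the excluded E125 barcodes held 37.8 C1Q UMIs, against 55.9 in members, and 11.2 UMIs of HLA-DRA and CD74, against 10.7. The excluded E85 barcodes held 73.8 C1Q UMIs, against 42.7 in members, and 23.0 of SPP1, against 3.38. Of the 497 SPP1 UMIs in these excluded barcodes, 449 were in 1. An endothelial list had 0.310 UMIs per 10000 in the excluded E125 barcodes and 0.206 in members, against 5.56 in barcodes without AIF1. At E85 these were 0.185, 0.126 and 2.11. The excluded barcodes count among the other barcodes in the comparisons below and held 95.8% (E125) and 80.0% (E85) of the AIF1 UMIs there, so ratios over the other barcodes are low for genes of these cells.

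Of the marker genes given for these cells, ACP5, a lysosomal acid phosphatase of macrophages and osteoclasts, was in 38 of 53 E125 members, with 0 to 4 UMIs (median 1). It was in 27 of 44 E85 members, with 0 to 48 (median 1). It was not particular to them, since 16.2% of the other E125 barcodes and 11.9% of the other E85 barcodes held it too, and its level was 3.51-fold and 5.93-fold that of the other barcodes. BATF3 had 65 UMIs in 22 E125 members and 6 UMIs in 5 E85 members. SPP1, which encodes osteopontin, had 0 UMIs in 53 E125 members. The exact intervals allow a level of up to 15.2 CPM and a share of up to 6.72% of barcodes with a UMI. At E85 it had 107 UMIs in 6 members, 96 of them in 1.

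Against the other barcodes of its library, the members were higher at genes of complement, antigen presentation and white blood cell signalling. A gene was measured where it had 20 or more UMIs in the members or would have had them at the level of the other barcodes, and it is called higher or lower at a ratio of 2 or more. At E125, 291 of 2137 measured genes (13.6%) were higher and 665 (31.1%) lower. At E85, 313 of 2376 (13.2%) were higher and 746 (31.4%) lower. The median gene stood at -0.46 on the log2 scale at E125 and at -0.47 at E85. Genes measured only through the members numbered 341 at E125 and 343 at E85, of which 245 and 256 were higher. Such genes had to lean towards the members, so these counts and those of the lists below are a description.

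Among genes of 200 CPM or more in members, the 12 highest ratios at E125 were those of the C1Q genes, the MHC class II pair, receptors of tissue macrophages and CLEC9A. C1QC had 0 to 30 UMIs in a member (median 1), in 35 of 53, and its level was 773 CPM, against 3.93 CPM in the other barcodes, 197-fold higher (160 to 242). C1QB was 157-fold higher (134 to 184) and C1QA 144-fold (132 to 157). CD74 was 146-fold higher (100 to 211) and HLA-DRA 106-fold (89.0 to 125.5), with 0 to 15 HLA-DRA UMIs in a member (median 3). TREM2, a lipid-sensing receptor of macrophages, was 138-fold higher, with 51 UMIs in 20 members. FOLR2, a folate receptor of resident macrophages, was 88.6-fold higher and F13A1, the coagulation factor XIII subunit found in macrophages, 104-fold. CTSS, the lysosomal protease that trims the CD74 chain, was in 51 of 53 members and 94.8-fold higher (82.1 to 109). LY86 (107-fold), a partner of a Toll-like receptor relative, RGS1 (84.3-fold), a brake on chemokine receptor signals, and CLEC9A (81.3-fold) completed the 12.

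At E85, with the same minimum of 200 CPM, the highest ratios belonged to the MHC class II pair and genes of leukocytes in general, and the C1Q genes stood lower in the order. HLA-DRA had 0 to 63 UMIs in a member (median 9.5), in 37 of 44, and its level was 1547 CPM, against 16.8 CPM, 92.0-fold higher (79.4 to 107). CD74 was 82.0-fold higher (58.2 to 116) and LY86 90.04-fold. NAPSA, an aspartic protease, was 81.0-fold higher (59.0 to 112), in 32 of 44 members. JCHAIN, the joining chain of polymeric antibodies, known mainly from plasma cells, was 67.6-fold higher (52.6 to 87.2), in 27 members. LY96, the co-receptor of the endotoxin receptor, was 71.4-fold higher, the inflammasome adaptor PYCARD 62.0-fold and the leukocyte actin-binding gene CORO1A 51.6-fold. RGS1 (68.1-fold), RGS10 (55.1-fold), the lysosomal gene PLBD1 (51.0-fold) and the phosphatase PTPN6 (49.2-fold) made up the rest. C1QA, C1QB and C1QC were 35.4-fold, 40.3-fold and 32.7-fold higher at E85. With the 7 members of 2 or 3 AIF1 UMIs left out, HLA-DRA stood at 102-fold at E85, and 321 of 2171 measured genes were higher and 687 lower. With every barcode of 2 or more AIF1 UMIs taken out of the other barcodes, HLA-DRA stood at 1875-fold at E125 and 502-fold at E85.

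**Figure D1:**
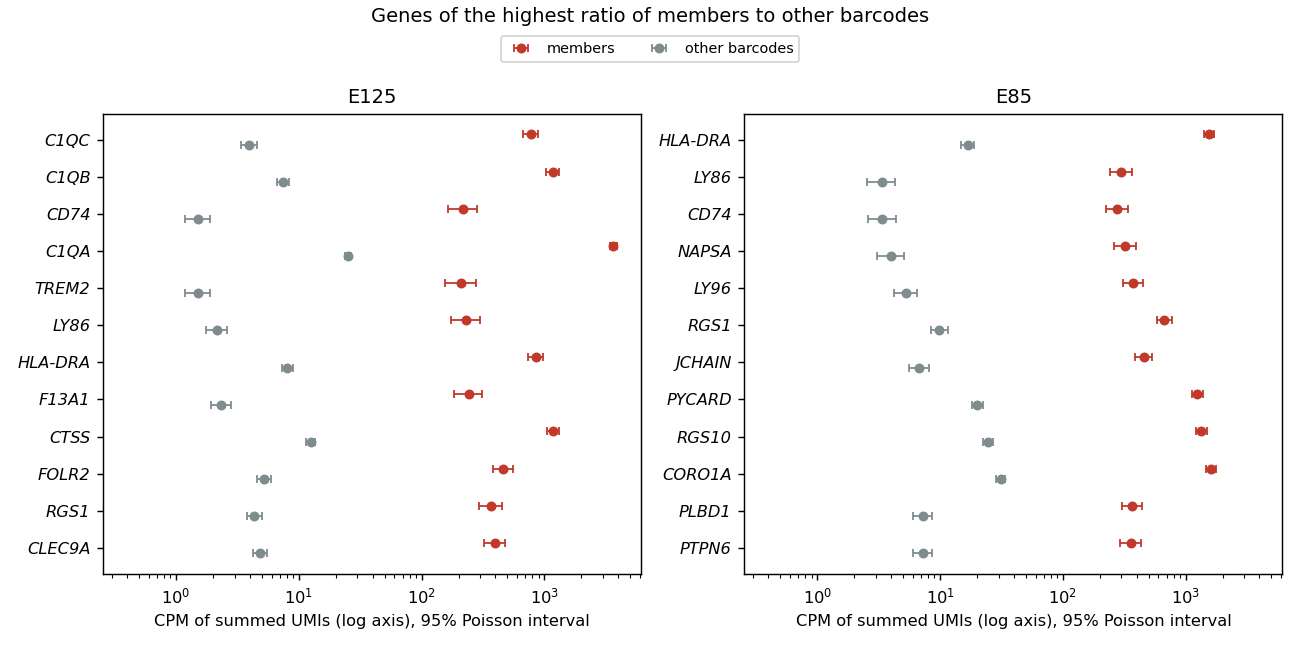
The 12 genes of the highest ratio among those of 200 CPM or more in members, at E125 (left) and at E85 (right), as CPM of summed UMIs on a log axis for members (red) and other barcodes (grey), with exact 95% Poisson intervals. Of these genes C1QC leads at E125 with 773 CPM in members and 3.93 CPM in other barcodes, and HLA-DRA leads at E85 with 1547 and 16.8 CPM.

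The share of barcodes with a UMI depends on depth, so each barcode was also thinned to 1000 UMIs, which left out 4 E125 members. After thinning, HLA-DRA was in 51.0% of E125 members and 0.475% of the other E125 barcodes (84.9% and 0.817% unthinned). At E85 it was in 61.4% and 0.536% (84.1% and 1.41% unthinned). C1QA was in 67.3% of E125 members and 0.583% of the other E125 barcodes, and in 22.7% and 0.918% at E85. Unthinned, C1QA was in 71.7% and 0.948% at E125 and in 27.3% and 3.11% at E85. At this common depth the members' shares lay far above those of the other barcodes for both genes at both stages.

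Genes of leukocyte signalling were higher throughout. Of 25 listed genes 23 were found, and all 12 measured at each stage were at least 2-fold higher, with a median log2 ratio of 4.72 at E125 and 4.97 at E85, against -0.46 and -0.47 over all measured genes. PTPRC, the leukocyte surface phosphatase CD45, was in 39 of 53 E125 members (30.1-fold) and in 29 of 44 E85 members (30.3-fold). LAPTM5, a lysosomal membrane gene of blood cells, was in 49 and 36 members (26.9-fold and 31.8-fold). The kinase BTK was 75.8-fold and 52.9-fold higher, and NCF4, a subunit of the phagocyte oxidase, 55.9-fold and 55.8-fold.

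Classical macrophage identity genes were caught sparsely. Of 20 listed, 17 were found, and 3 of 6 measured were higher at E125 and 1 lower, and 3 of 3 were higher at E85. The mannose receptor MRC1 was in 32 E125 members and 20 E85 members (54.4-fold and 60.8-fold). CD163, the haemoglobin scavenger receptor, had 21 UMIs in 15 E125 members and 9 UMIs in 3 E85 members. The growth factor receptor CSF1R, on which macrophages depend, had 14 and 7 UMIs, CD14 had 5 and 1, and CD68 had 5 and 30. LYVE1, which also marks lymphatic endothelium, stood at 0.121 of the other barcodes' level at E125, with 3 UMIs.

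Complement genes had the highest list median at E125. All 6 measured of 11 found were higher at each stage, with a median log2 ratio of 7.23 at E125 and 5.09 at E85. C3, the central complement protein, was in 48 E125 members (7.0-fold) and 23 E85 members (7.77-fold), and CFD, the factor D protease, was 5.39-fold and 11.5-fold higher. C5AR1, the receptor of the C5a fragment, had as many UMIs in the 53 E125 members, 40, as in the 7592 other barcodes (201-fold), and was 78.0-fold higher at E85. Antigen presentation genes, 28 listed and 15 found, were higher at all 7 measured at E125 and all 8 at E85. The thiol reductase IFI30 was 8.48-fold and 5.03-fold higher, and the immunoproteasome subunit PSMB9 6.32-fold and 8.38-fold.

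Of the chemokine and cytokine list, 21 found of 29, 4 of 6 measured genes were higher and 1 lower at E125, and 2 of 4 were higher and 1 lower at E85. Its summed level was 1.51-fold and 1.73-fold that of the other barcodes. The lower gene was CXCL12, at 0.213 and 0.157, and MIF was within 2-fold. All 5 measured genes of pattern recognition were higher at each stage, with CASP1, the inflammasome protease, at 37.6-fold and 67.5-fold. IL1B, the cytokine it processes, had 21 UMIs in 12 E125 members, against 20 UMIs in the other barcodes (211-fold). At E85 it had 45 UMIs in 20 members, against 4 (608-fold). CCL8, a monocyte chemokine, had 28 UMIs in 10 E125 members, against 26 in the other barcodes (216-fold), and CXCL8, a neutrophil chemokine, 20 in 7, against 11 (365-fold). CXCL10, an interferon-induced chemokine, was widespread in the other barcodes too and was 2.47-fold and 3.36-fold higher. Both CXCL10 ratios leaned on few cells. At E125 1 member held 58 UMIs, and at E85 1 held 146 and another, with 3 AIF1 UMIs, 116. TGFB1 was the member of the growth factor list that was higher, at 6.05-fold and 12.4-fold, and 3 of 4 measured at E125 and 4 of 5 at E85 were lower.

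The other lists of myeloid states held few measured genes. Of the dendritic cell list, 15 found of 20, all 6 measured were higher at E125 and 2 of 3 at E85, with NAAA, a lysosomal amidase, at 11.2-fold and 8.91-fold and FLT3 at 49.6-fold and 68.8-fold. Of the phagocytic receptor list, 3 of 5 and 3 of 3 were higher, and of the myeloid transcription factors 2 of 2 and 1 of 2, with KLF4 at 2.50-fold and 6.42-fold. Of the list of lipid handling and the GPNMB and SPP1 state, 1 of 2 measured was higher at E125 and 5 of 7 at E85, and 1 was lower at each stage. Monocyte genes were higher at 3 of 5 and 3 of 5, with VCAN, a matrix proteoglycan of stroma and monocytes, lower at 0.229 and 0.0620. Of the microglia list 2 of 4 and 1 of 3 were higher and 2 and 2 lower, the lower ones being OLFML3 and SPARC. Cytokine receptors were higher at 2 of 3 and 3 of 3, with IFNGR1 at 8.30-fold and 3.14-fold, and interferon-induced genes at 2 of 3 and 3 of 7. Glycolysis genes were higher at 1 of 5 and 3 of 8, where HK3, a hexokinase of myeloid cells, was 176-fold and 94.5-fold higher. The osteoclast list had ACP5 alone measured, the neutrophil list 0 at E125 and 1 at E85, which was lower, and the mast cell list 0 at both.

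Lysosomal genes, 29 found of 34, were higher at 6 of 9 measured at both stages, while LGMN and LAMP2 were within 2-fold. Iron genes were higher at 4 of 4 measured at E125 and 2 of 4 at E85. HMOX1, which degrades heme, was 11.3-fold and 3.72-fold higher, and the ferritin heavy chain FTH1, present in all 97 members, 3.0-fold and 2.12-fold. CST3, the protease inhibitor cystatin C, also present in all 97 members, was 13.4-fold and 9.0-fold higher. Of the cell cycle list, 0 of 9 measured were higher at E125 and 0 of 8 at E85, and 2 and 3 were lower. APOE, which macrophages of many tissues express, stood at 0.167 and 0.227 of the level in the other barcodes, and at 0.0976 at E85 without the 7 members. Immediate early genes, which dissociation with enzymes can induce, were higher at 6 of 9 and 5 of 9 measured. FOS was 12.5-fold and 5.72-fold higher, and what part the dissociation had in it was not tested.

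The members of each stage fell into those with C1Q transcripts and those with few or none. At E125, 13 of 53 members had 0 C1Q UMIs, 2 had fewer than 15 per 10000 UMIs, 3 had 15 to under 30 and 35 had 30 or more. At E85, 31 of 44 had 0, 6 had fewer than 15 and 7 had 30 or more, and none lay between 15 and 30. A limit of 15 per 10000, chosen after the values were seen, gave 15 C1Q-poor and 38 C1Q-rich members at E125 and 37 C1Q-poor and 7 C1Q-rich members at E85. Both are ranges of a score and not cell types. C1Q-rich members made up 71.7% of the E125 members (57.7 to 83.2) and 15.9% of the E85 members (6.64 to 30.1). The 7 E85 members of 2 or 3 AIF1 UMIs were all C1Q-poor, and without them the E85 share was 18.9% (7.96 to 35.2). The share also depends on the exclusion genes. Among the excluded barcodes 25 of 50 at E125 and 7 of 20 at E85 passed the same limit, and among all barcodes of 2 or more AIF1 UMIs 63 of 103 at E125 (61.2%) and 14 of 64 at E85 (21.9%). C1Q-poor members had more UMIs than C1Q-rich ones, with medians of 7439 and 2582 at E125 and of 7223 and 6382 at E85.

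**Figure D2:**
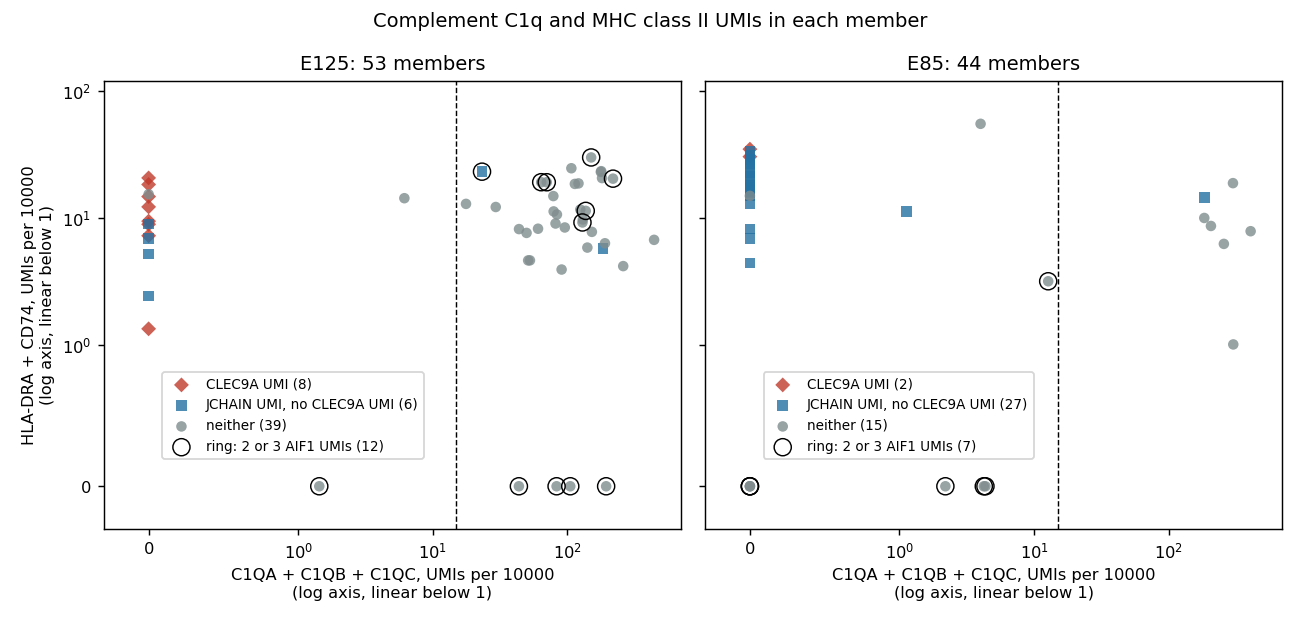
UMIs of the 3 C1Q genes (horizontal) against UMIs of HLA-DRA and CD74 (vertical) per 10000 UMIs in each of the 53 E125 members (left) and 44 E85 members (right), on axes that are logarithmic above 1 and linear below. The dashed line is the limit of 15, which 38 E125 members and 7 E85 members pass, red diamonds are the 8 E125 members and 2 E85 members with CLEC9A, blue squares hold JCHAIN and no CLEC9A, and rings mark members with 2 or 3 AIF1 UMIs.

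At E125 CLEC9A, BATF3 and FLT3 stood higher in C1Q-poor members, and FOLR2, TREM2 and DAB2 in C1Q-rich ones, while other genes of both kinds were shared or lay the other way. C1Q defined the 2 ranges and is left out of what follows. Of 496 genes measured between them, 13 (2.62%) were at least 2-fold higher in C1Q-poor members and 81 (16.3%) lower. CLEC9A had 96 UMIs in 8 of 15 C1Q-poor members and 0 in 38 C1Q-rich members, 35.6-fold higher with the 0 set to 3 UMIs (28.4 or more). BATF3 was in 12 C1Q-poor and 10 C1Q-rich members and 2.90-fold higher (1.66 to 5.31), and the endoplasmic reticulum gene DERL3 4.15-fold (2.32 to 7.91). CST3, known to be abundant in dendritic cells, stood at 83475 CPM, against 40295 CPM in C1Q-rich members, 2.07-fold higher (2.00 to 2.14). This ratio is close to the 2-fold limit, and 1 C1Q-poor member held 2537 of the 9608 CST3 UMIs. FLT3, the receptor for the main dendritic cell growth factor, had 18 UMIs in 9 C1Q-poor members and 2 UMIs in 2 C1Q-rich members. FOLR2 had 0 UMIs in C1Q-poor members and 112 in 28 C1Q-rich members, at least 33.6-fold lower, and TREM2 0 and 51 UMIs, at least 15.3-fold lower. The endocytic adaptor DAB2 had 1 UMI in C1Q-poor members and 110 in 23 C1Q-rich members. CFD was 39.7-fold lower in C1Q-poor members (16.8 to 124), the iron exporter SLC40A1 12.8-fold (6.28 to 30.4) and the interferon-gamma receptor IFNGR1 6.93-fold (4.16 to 12.3). HLA-DRA was within 2-fold, at 808 CPM in C1Q-poor and 890 CPM in C1Q-rich members, and CD74 was 2.28-fold lower in C1Q-poor members (1.22 to 4.46). Of other genes of the dendritic cell list, CADM1 was in 11 of 15 C1Q-poor and 32 of 38 C1Q-rich members, with a ratio of 0.653 (0.468 to 0.904). CD1E, a lipid antigen-presenting relative of MHC class I, had 0 UMIs in C1Q-poor members and 25 in 12 C1Q-rich members. MRC1 was in 10 C1Q-poor and 22 C1Q-rich members.

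The 8 E125 members with CLEC9A shared other genes. All 8 held BATF3, while 0 of 8 held C1Q or FOLR2. CADM1, an adhesion gene of the same dendritic cells, was in 7 of the 8, and also in most other E125 members. CLEC9A reached 33 UMIs in 1 of them, which is 34.4% of its total. XCR1, the chemokine receptor that marks this subset in mouse and human, had 1 UMI at each stage. In contrast all 28 E125 members with FOLR2 held C1Q, and 21 of them DAB2.

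At E85 the 7 C1Q-rich members stood far from the 37 C1Q-poor ones. Of 629 genes measured between them, 61 (9.7%) were at least 2-fold higher and 63 (10.0%) lower in C1Q-poor members. FOLR2 had 2 UMIs in C1Q-poor members, against 144 in C1Q-rich members, where each of the 7 had 8 to 52 (median 19). PLTP, a phospholipid transfer protein, was 136-fold lower in C1Q-poor members (51.4 to 506) and CFD 123-fold (88.4 to 176). SLC40A1 was 61.6-fold lower (27.0 to 173), ACP5 12.5-fold (8.08 to 19.8) and C3 9.43-fold (6.2 to 14.6), where 1 C1Q-rich member held 37 of the 73 SLC40A1 UMIs and 1 held 48 of the 74 of ACP5. Higher in C1Q-poor members were TUBA1B, an alpha tubulin, at 7.55-fold (3.78 to 17.6), RARRES2, the chemoattractant precursor chemerin, at 6.61-fold (2.52 to 24.6) and GSTM3, a glutathione transferase, at 6.12-fold (2.57 to 19.1). The 7 members of 2 or 3 AIF1 UMIs, all C1Q-poor, held 103 of the RARRES2 and 107 of the GSTM3 UMIs. Without them TUBA1B stood at 7.80-fold (3.90 to 18.3), RARRES2 at 1.74-fold (0.615 to 6.78) and GSTM3 at 2.16-fold (0.862 to 6.94), and 50 of 563 measured genes were higher and 58 lower. DCN had 101 UMIs in 13 C1Q-poor members and 0 in the C1Q-rich ones, 6.64-fold higher with the 0 set to 3 UMIs (5.31 or more). Without the 7 members, which held 44 of these UMIs, the ratio taken in this way was 4.27-fold. Of the 57 DCN UMIs then left, 1 member held 32 and another 15.

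JCHAIN was found mostly in C1Q-poor members of E85. It was in 26 of 37 C1Q-poor and 1 of 7 C1Q-rich members at E85, with 0 to 12 UMIs in a member. Of the 27 E85 members with JCHAIN, 26 held NAPSA, 12 held FLT3 and 2 held C1Q. The B cell genes CD79B, MS4A1 and PAX5 had 0 UMIs in all members of both stages, while CD22 had 6 UMIs at E125 and 0 at E85 and BLNK, an adaptor of B cells and macrophages, 5 and 3. JCHAIN is also known from plasmacytoid dendritic cells in human, and no type name was given to these members. FCER1A, an IgE receptor chain also found on dendritic cells, had 15 UMIs in 12 E85 members, against 2 UMIs in the other barcodes.

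**Figure D3:**
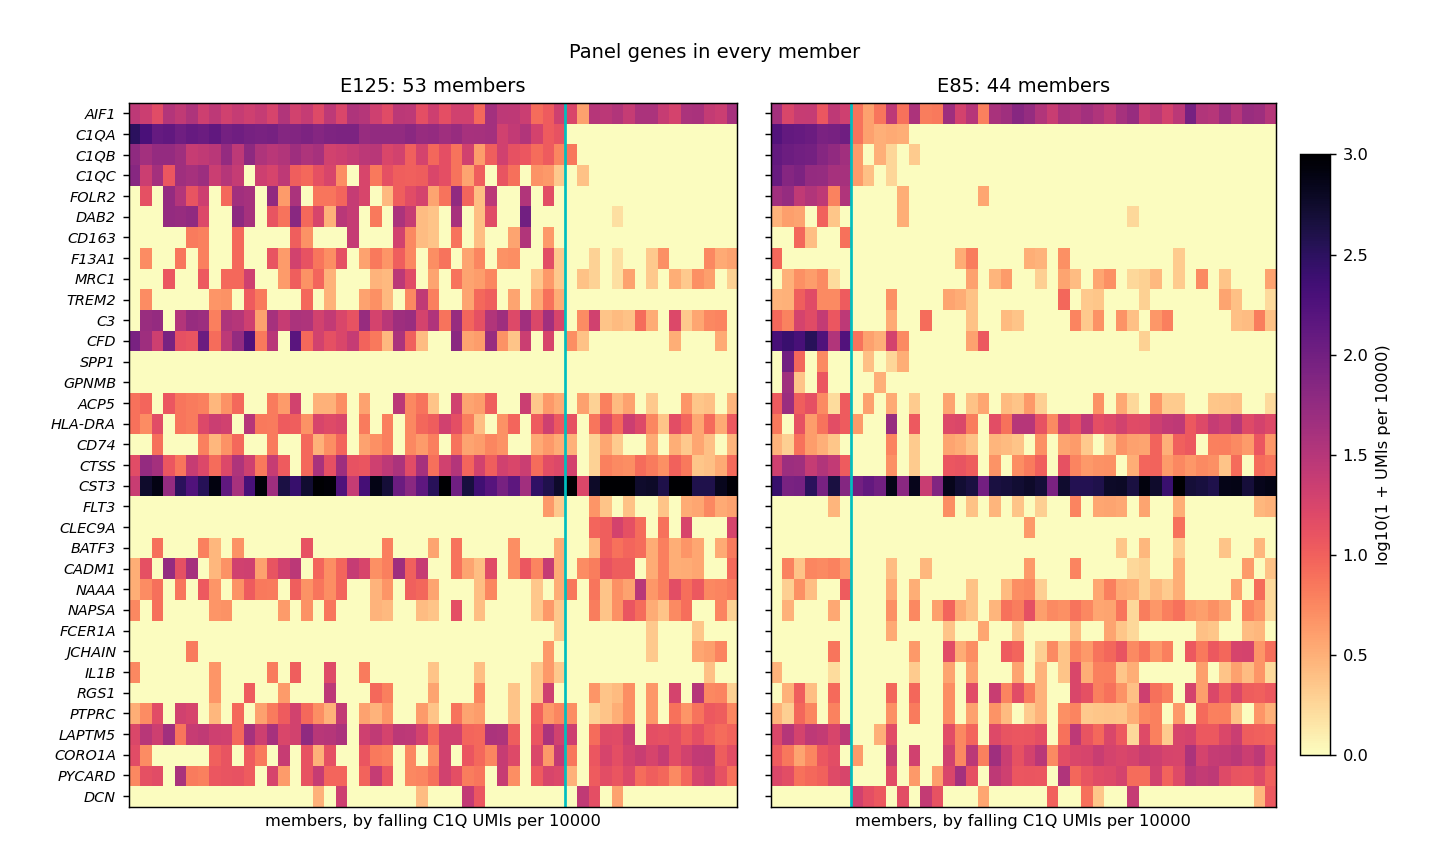
UMIs per 10000, as log10 of 1 plus the value, of genes named in the text (down the page) in each of the 53 E125 members (left) and 44 E85 members (right), ordered by falling C1Q level, with a line at 15 C1Q UMIs per 10000. FOLR2, DAB2 and CFD stand higher in the C1Q-rich columns, with FOLR2 in 28 and DAB2 in 23 of the 38 at E125. CLEC9A is in 8 of the 15 E125 columns right of the line, and BATF3 in 12 of these and 10 left of it. JCHAIN and NAPSA are mostly in the E85 columns right of the line.

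SPP1 and GPNMB, which mark lipid-laden macrophages in several tissues, rested on 1 E85 cell. That C1Q-rich member held 96 of the 107 SPP1 UMIs, 44 of the 51 of GPNMB, 48 of the 104 of ACP5 and 252 of the 934 of CFD. Without it, SPP1 had 11 UMIs and GPNMB 7 at E85, against 0 of each at E125. UMIs of the mitosis genes TOP2A, CENPF, CENPE and TPX2 reached 40, 24 and 13 in 3 E125 members, all C1Q-rich. No share of such cells among the other barcodes is given here. The cell cycle list summed to 1180 CPM in E125 members and 1508 CPM in the other E125 barcodes. At E85 these sums were 734 and 1278 CPM.

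Between the stages, E125 members were higher than E85 members in BATF3, CLEC9A and CADM1, among others, and lower in GPNMB, JCHAIN and CFD. Of 1159 genes measured, with 50 or more UMIs over both stages, 144 (12.4%) were at least 2-fold higher and 122 (10.5%) lower at E125, with a median log2 ratio of 0.01. This balance depends on the scaling and the exclusion genes, with 115 higher and 175 lower under TMM factors, 79 and 252 under DESeq2 size factors, and 430 and 213 with no exclusion genes. Without the 7 E85 members of 2 or 3 AIF1 UMIs the counts were 128 and 110. Stage and library cannot be told apart, and a comparison with the other barcodes does not separate them. Genes were named where the ratio in members stood at least 2-fold beyond that in the other barcodes of the same libraries. The excluded AIF1 barcodes count among these and held 224 of their 237 CLEC9A UMIs at E125. For genes of these cells, the ratio in the other barcodes is therefore not a library-wide baseline. BATF3 stood at 267 CPM in E125 members and 19.0 CPM in E85 members, 14.1-fold higher (6.13 to 39.8), with a ratio of 6.48 in the other barcodes. CLEC9A was 13.9-fold higher (7.01 to 31.3; 3.77 in other barcodes) and CADM1 5.80-fold (4.04 to 8.52; 2.27). CLEC9A was in 15.1% of E125 members (6.75 to 27.6) and 4.55% of E85 members (0.555 to 15.5), and these intervals overlap. CADM1 was not particular to C1Q-poor members, with 61 UMIs in them and 104 in C1Q-rich members at E125. DAB2 was 10.3-fold higher (5.89 to 19.5; 1.97), the kinase STK17A 7.80-fold, the formin FMNL2 6.83-fold and TGFBI, a secreted matrix protein, 4.04-fold (2.37 to 7.17; 1.01). PABPN1, CEP350, ZDHHC20 and GNG2 were 5.98-fold, 3.63-fold, 3.62-fold and 3.47-fold higher. The chemokine CXCL9 was 3.53-fold higher (1.87 to 7.05), but 1 member at each stage held 14 of 38 and 12 of 14 UMIs.

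The dendritic cell list had 4 measured genes between the stages, all higher at E125, where CLEC9A and BATF3 passed the UMI minimum through E125 alone, so this is a description. Of its genes below the minimum, FLT3 had 20 UMIs at E125 and 28 at E85, and FCER1A 3 and 15. The lipid handling list was lower at 5 of 6, and the leukocyte signalling list was within 2-fold at 10 of 11, with 1 lower, CYBA, an oxidase subunit.

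Lower at E125 was JCHAIN, with 37.0 CPM in E125 members and 455 CPM in E85 members, 12.3-fold (6.30 to 27.5; 1.13 in other barcodes). GPNMB was 13.1-fold lower with its 0 UMIs at E125 set to 3 (10.3 or more), and 1 E85 member held 44 of the 51 UMIs. GSN, an actin-severing protein, was 8.84-fold lower (3.86 to 24.9), SELENOM, a selenoprotein, 6.83-fold (3.28 to 16.4), and GSTM3 4.73-fold (3.11 to 7.47). The 7 E85 members of 2 or 3 AIF1 UMIs held 107 of the GSTM3 and 32 of the SELENOM UMIs, and without them GSTM3 was 1.74-fold lower (1.07 to 2.91), under the 2-fold limit, and SELENOM 4.17-fold (1.92 to 10.3). SGK1, a kinase induced by steroids and serum, was 4.14-fold lower in E125 members (2.58 to 6.94) but 2.02-fold higher in the other E125 barcodes. CFD was 3.18-fold lower (2.75 to 3.69), although it was in 37 of 53 E125 members and in 15 of 44 E85 members, and 1 E85 member held 252 of the 934 UMIs. RNASEK, FBP2, MRPS24, MGMT and IDH2 were 7.38-fold, 7.08-fold, 3.52-fold, 3.15-fold and 3.08-fold lower. Several genes of large ratio also differed in the other barcodes. TAF10 was 25.7-fold higher in E125 members and 32.3-fold in the other barcodes, TMEM160 15.2-fold and 11-fold, and GCG 9.38-fold lower in members and 6.13-fold in the other barcodes. NENF stood at 13.5-fold in members and 7.48-fold in the other barcodes, and GSPT1 at 12-fold and 6.34-fold.

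**Figure D4:**
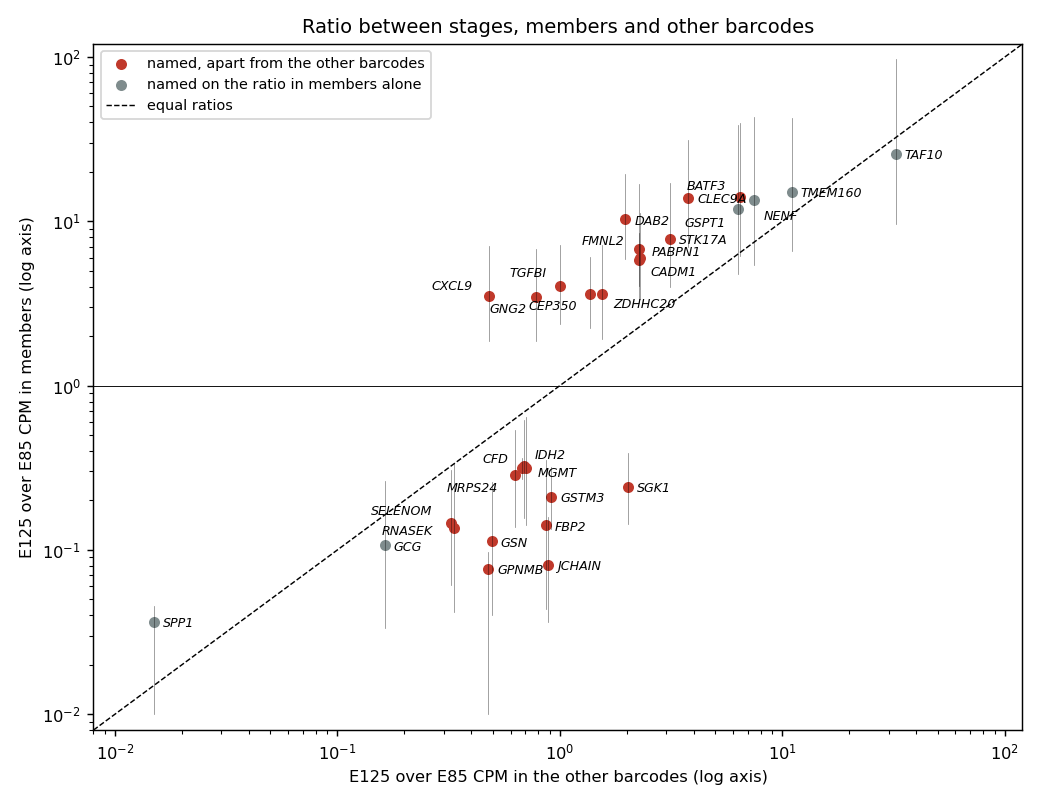
Ratio of E125 to E85 CPM in members (vertical, with exact 95% intervals) against the same ratio in the other barcodes (horizontal), both on log axes, for the genes named in the comparison of stages, where SPP1 and GPNMB have 0 UMIs at E125 and their points are bounds. TAF10, at 25.7 and 32.3, lies near the dashed line of equal ratios, while BATF3 at 14.1 and 6.48 lies above it and JCHAIN below it.

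Because the stages differed in their share of C1Q-rich members, each stage ratio was also taken within the 2 ranges, for named genes with 20 or more UMIs there over both stages. Among C1Q-rich members, 59 of 412 measured genes (14.3%) were higher and 44 (10.7%) lower at E125. Among C1Q-poor members, 46 of 694 (6.63%) were higher and 126 (18.2%) lower. Without the 7 E85 members of 2 or 3 AIF1 UMIs, 45 of 632 were higher and 107 lower among C1Q-poor members. Of the 12 genes named as higher at E125, STK17A, PABPN1, CADM1, TGFBI, CEP350 and GNG2 were at least 2-fold higher in both ranges. The intervals of GNG2 included 1 in C1Q-rich (0.904 to 7.81) and in C1Q-poor members (0.973 to 6.63). STK17A and PABPN1 had only 2 and 3 UMIs in the E85 C1Q-rich members. DAB2 was higher in C1Q-rich members, at 3.73-fold (2.05 to 7.44), in place of 10.3-fold over all members, and it had too few UMIs in C1Q-poor ones. In C1Q-poor members BATF3 was 18.0-fold higher (7.67 to 51.4) and CLEC9A 24.5-fold (12.4 to 55.1). FMNL2, ZDHHC20 and CXCL9 were under 2-fold in C1Q-rich members and had too few UMIs in C1Q-poor ones. Of the 12 named as lower, SGK1, MRPS24, CFD, MGMT and IDH2 were lower in both, although the interval of MGMT in C1Q-poor members (0.856 to 7.56) included 1. JCHAIN was 8.34-fold lower among C1Q-poor members (3.94 to 21.2). GPNMB was 41.0-fold lower among C1Q-rich members with its 0 UMIs at E125 set to 3 (32.1 or more), where 1 E85 member held 44 of the 50 UMIs.

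Among C1Q-rich members, F13A1 and FOLR2 differed between the stages, with ratios near those in the other barcodes. The other barcodes include the excluded AIF1 barcodes and are not a library-wide baseline for genes of these cells. At E85 the excluded barcodes held 247 FOLR2 UMIs, against 10 and 66 in barcodes of 1 and 0 AIF1 UMIs. At E125 they held 97 of the 254 in the other barcodes. F13A1 was 4.68-fold higher at E125 (1.71 to 17.9), with a ratio of 4.43 in the other barcodes and its 4 E85 UMIs in 1 member. JUN was 12.4-fold higher (6.18 to 29.0), with 5.84-fold in the other barcodes. FOLR2 was 3.16-fold lower (2.45 to 4.08; a ratio of 0.275 in other barcodes), PLTP 11.9-fold (7.5 to 19.9; 0.242), CFD 9.97-fold (8.60 to 11.6) and the scavenger receptor CD36 12.3-fold (5.93 to 28.6; 0.293). MRC1, CD163 and TREM2 had ratios of 1.42 (0.690 to 3.23), 0.95 (0.417 to 2.36) and 0.670 (0.420 to 1.08), whose intervals include 1. Only 7 members stand on the E85 side. Among C1Q-poor members CKB, a creatine kinase, was 7.80-fold lower at E125 (5.67 to 11) and ADGRE3, an adhesion receptor of myeloid cells, 8.86-fold (2.89 to 44.2), with ratios of 0.314 and 0.140 in the other barcodes.

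**Figure D5:**
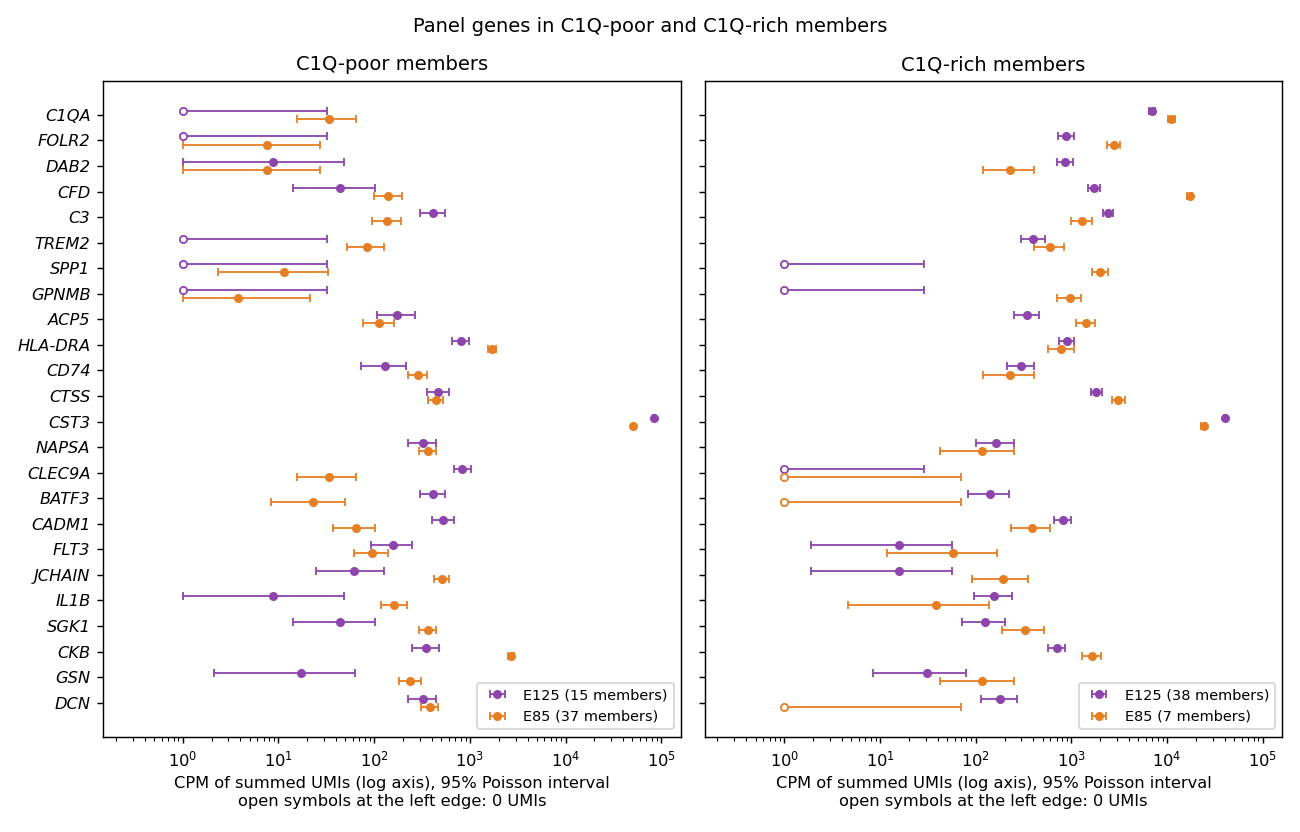
CPM of summed UMIs on a log axis, with exact 95% Poisson intervals, in C1Q-poor (left) and C1Q-rich (right) members at E125 (purple) and E85 (orange), with open symbols at the left edge for 0 UMIs. CLEC9A and BATF3 are higher at E125 among C1Q-poor members, and SPP1, GPNMB and CFD are lower at E125 among C1Q-rich members.

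Markers of other cells were counted in the members. Over 19 found T and NK cell genes the members held 7 UMIs at E125 and 6 at E85, with CD3D, CD3E, CD3G and CD8A at 0. The neutrophil list had 17 and 13 UMIs, of which ELANE held 15 and 12, and the mast cell list 6 and 18, of which FCER1A held 3 and 15, with MPO, PRTN3, S100A8, MS4A2 and HDC at 0. The B cell list had 20 and 147 UMIs, of which JCHAIN held 9 and 144, and stood 8.67-fold and 42.2-fold above the other barcodes. Endothelial genes summed to 5 and 4 UMIs, pregranulosa genes to 12 and 16, surface epithelium genes to 4 and 2, perivascular genes to 10 and 17, and germ cell genes to 37 and 45. The erythroid list had 1 UMI at each stage, the glial list 0 and 1, and the platelet list 2 and 2, which is 7.30-fold and 4.32-fold the level of the other barcodes. Stromal genes had 199 UMIs at E125 and 234 at E85, or 818 and 740 CPM, against 5698 and 4976 CPM in the other barcodes. The part of stromal RNA in the results was not tested, nor was that of doublets beyond a rerun on a doublet score. The rerun left out the barcodes of the highest scores, 5 E125 and 3 E85 members among them. Against the other barcodes, 277 genes were then higher and 599 lower at E125, and 297 and 691 at E85. Between the stages 135 were higher and 111 lower at E125.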

How the data were processed

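Droplet 3' single-cell RNA libraries of goat fetal ovary were analysed, 1 for E125 and 1 for E85. The authors deposited raw UMI counts per gene and barcode. Per the submitters' processing notes Cell Ranger 3.1 was used, while the file header gives 6.0.0. The genome build is not given in the sources used here. Of 27271 features, 10655 (39.1%) have no symbol, and 38.5% (E125) and 41.8% (E85) of the members' UMIs fall on them. Members and gene lists were chosen with earlier results of these data known. Of 577 listed symbols, 459 were found, and the rest are not analysed here.

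Barcodes with 500 or more genes were kept, with no filter on mitochondrial share and no doublet removal. Counts were summed over members and over the other barcodes of the library and divided by their totals. Values under 3 UMIs were set to 3 in ratios. Genes named against the other barcodes are the 12 of the highest ratio at 200 CPM or more in members. Between stages they are the 12 highest and 12 lowest of 100 CPM or more whose ratio stood 2-fold beyond that of the other barcodes, and the 6 highest and 6 lowest without that condition. Within C1Q ranges the 10 of each direction at 200 CPM or more were ranked, and those described are a selection made after their values were seen. Python 3.11.15, numpy 2.4.6, scipy 1.17.1, pandas 2.3.3 and scanpy 1.11.5 (Scrublet) were used, and edgeR 4.0.16 (TMM) and DESeq2 1.42.0 gave scaling factors only. The computation was tested on simulated data.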

Additional observations from a re-analysis of the deposited data

Results flagged for a closer look

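Outside the comparisons, which used barcodes with 500 or more genes, 4 E125 barcodes and 4 E85 barcodes with fewer genes also had 2 or more AIF1 UMIs. They are 0.571% of 701 such barcodes at E125 and 1.08% of 369 at E85, and they were noted because they lie in data that no comparison used and above what a count of 0 allows. They held 35 C1Q UMIs in 3 barcodes at E125 and 27 in 2 at E85. The members nearest to the limit of 500 genes had 528, 529 and 535 genes at E125 and 801, 804 and 853 at E85, and the barcodes with 2 or more AIF1 UMIs nearest below it had 445, 399 and 390 at E125 and 461, 364 and 299 at E85.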

How the results depend on the processing

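No paired analysis was possible because each stage is 1 library. With an AIF1 minimum of 1 UMI, members were 2.63% of E85 barcodes, 334 genes were higher and 284 lower at E125 than at E85, CXCL9 had a ratio of 0.974 and the transcription factor list a median log2 ratio of -0.19 at E85. With no exclusion genes, members were 1.35% (E125) and 1.59% (E85), 536 genes were higher and 1464 lower than in other barcodes at E125, 1190 lower at E85, and 430 higher and 213 lower between stages. CXCL9 and SLC40A1 then had stage ratios of 0.942 and 0.855, GPNMB a ratio of 0.895 to other barcodes at E125, the neutrophil list a median of 0.25 at E85, and the receptor and iron lists medians of -0.24 and -0.40 between stages. Without PECAM1 as an exclusion gene, members were 1.24% at E125, 529 genes were higher and 1417 lower there, 376 higher and 193 lower between stages, SLC40A1 had a ratio of 0.819, and the receptor and iron lists had medians of -0.30 and -0.50. With 1000 or more genes per barcode the microglia list had a median of -2.54 at E125 and SLC40A1 a stage ratio of 0.988, and with an AIF1 minimum of 4 UMIs -2.96. With no UMI minimum, 2871 genes were higher and 1925 lower at E125, 2858 and 2195 at E85, and 1344 and 608 between stages, and the neutrophil and microglia lists had medians of 1.30 and 4.67 at E85. With the mean over cells of CPM per cell, 224 genes were higher at E125 than at E85. DESeq2 size factors gave 79 higher and 252 lower between stages.

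Scaling moved the median gene by 0.25 (E125) and 0.36 (E85) against other barcodes and by -0.18 between stages with TMM, and by 0.26, 0.39 and -0.38 with DESeq2 size factors. The share of higher among called genes was 30.4%, 29.6% and 54.1% as reported, 38.1%, 41.3% and 39.7% with TMM, and 38.4%, 42.6% and 23.9% with DESeq2. It was 38.9% at E125 with the mean over cells. Without the 7 E85 members of 2 or 3 AIF1 UMIs, APOE had a stage ratio of 1.135. That removal, the minimum of 4 UMIs, the use of PECAM1 and the removal of other barcodes with 2 or more AIF1 UMIs were chosen after seeing the data. The cause of these changes was not tested. At 53 and 44 members, genes of under about 20 UMIs could not be compared, and 1 library a stage leaves no measure of the spread between animals.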
